A study of Mus musculus with 26 samples.

Results

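The colon of wild-type C57BL/6J mice on the standard diet was compared between the last 2 time points of colitis-associated tumorigenesis. The comparison was made of the 3 samples labelled standard diet, AOM–DSS, day 70 and the 3 labelled standard diet, AOM–DSS, day 43, which are 6 of the 26 samples of the series and were taken by their titles alone. All 6 came from male mice bought from Taconic at a starting age of about 10 weeks. Each mouse received 10 mg per kg azoxymethane (AOM), a carcinogen that alkylates DNA, and then cycles of dextran sodium sulfate (DSS), a polymer that damages the colonic epithelium, in the drinking water for 7 days per cycle. By the stated schedule, day 43 fell after the second DSS cycle and day 70 after the third and last, although the labels give a shorter recovery on plain water between cycles than the study's methods do. The other samples of the series were untreated mice, mice at day 22, and the same time points on a diet with GW3965, an agonist of the liver X receptors (LXR). RNA was taken from the distal colon in the area where tumours form, and the study describes these libraries in one place as pools of a few mice and in another by the mice per time point, so that whether a sample is 1 mouse or a pool is not settled. All day 43 samples came from cage A and the day 70 samples from cages G, H and I, so that the day and the cage cannot be told apart. Nothing in the labels says which mice each sample came from. P values rest on the spread between samples within groups, estimated over all 26 samples of the series and not over these 6 alone.

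In this model, DSS strips the epithelium, luminal bacteria reach the mucosa, and neutrophils, monocytes and lymphocytes are recruited while the crypts regrow. AOM-induced mutations that stabilise β-catenin switch on the Wnt pathway independently of its ligands. The resulting adenomas keep a crypt-progenitor programme of Wnt target genes, including secreted feedback inhibitors of the pathway, and divide persistently. Bulk RNA from a biopsy mixes the epithelium with immune, stromal, muscle and nerve cells, so that fewer cells of a type and less RNA per cell cannot be told apart.

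Estimated counts were summed per gene and converted to CPM (counts scaled to a common library size) with TMM factors, and days were compared with edgeR's quasi-likelihood test fitted on all 26 samples. Fold changes are given as log2 of day 70 over day 43 with their standard error (s.e.), and a gene was called at a Benjamini–Hochberg adjusted P below 0.05. Of 17063 genes tested, 8475 (49.7%) were called, 3918 (23%) higher and 4557 (26.7%) lower at day 70, and 5956 of the called genes changed by more than 1 on the log2 scale. The values of the 3 day 43 samples did not overlap those of the 3 day 70 samples in 8325 genes (48.8%). Counts for the gene lists below are to be read against these shares, and the median log2 fold change over all genes was −0.13.

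The libraries of the 2 days also differed as a whole. RNA integrity numbers were 2.6, 8.4 and 7.8 at day 43 and 10, 9.5 and 9.9 at day 70. Genes of ribosomal proteins took 16.7%, 14.4% and 18.6% of the estimated counts at day 43 but 4.57%, 6.57% and 6.66% at day 70, against 5.33% to 6.45% in the 4 untreated samples on the standard diet, which give all untreated ranges below. Library totals were 19570743 to 23848907 estimated counts, except for 41522204 in day 43 replicate 1, the sample of RNA integrity number 2.6. The median log2 fold change rose from −1.22 in the eighth of genes with the shortest transcripts (below 778 bases) to 0.44 in the eighth with the longest (above 4407 bases). With the length trend of each library removed by offsets, an alternative added after the data were seen, the medians of these bins lay between −0.10 and −0.03, and 3605 genes (21.1%) were called higher and 3980 (23.3%) lower. Without day 43 replicate 1, 4486 of 17418 genes (25.8%) were called higher and 4580 (26.3%) lower. With the ribosomal protein percentage of each library as a covariate, 0 genes were called and 1590 had an unadjusted P below 0.05. That percentage does not overlap between the days, so that the day and the ribosomal share cannot be told apart. With RNA integrity as a covariate 7554 genes were called (3651 higher, 3903 lower), of which 5667 were called in the same direction without it. Scaling by library totals alone moved the median of all genes to 0.28 and the higher share of the called genes from 46.2% to 66.3%.

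**Figure D1:**
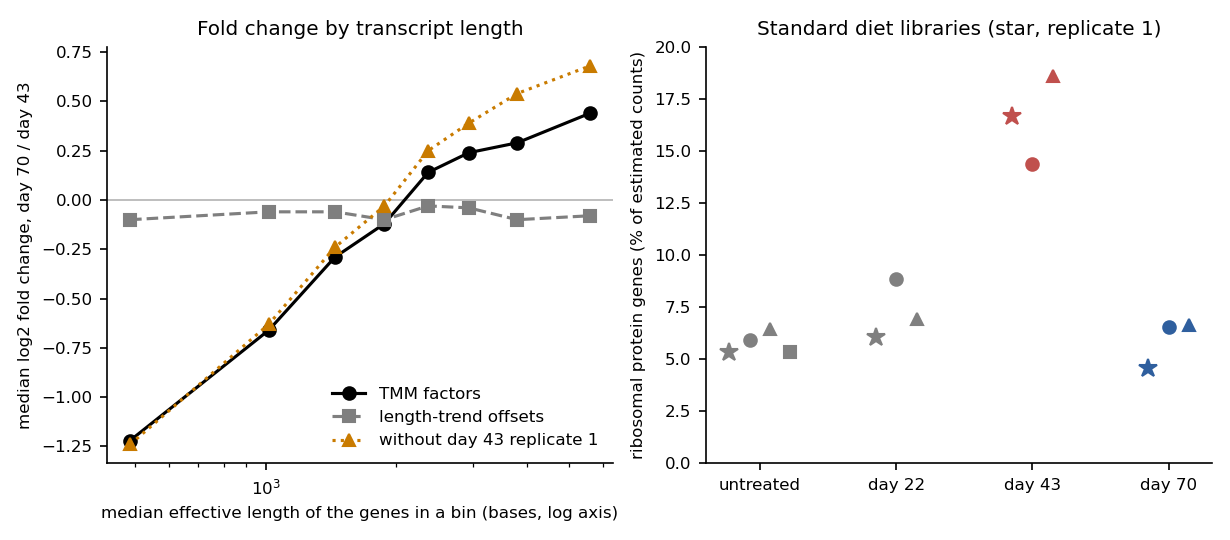
Left, median log2 fold change (day 70 over day 43) of 8 bins of genes by effective transcript length in bases on a log axis, for the fit with TMM factors, the fit with length-trend offsets and the fit without day 43 replicate 1. The median rises with length with TMM factors and is flat with the offsets. Right, share of estimated counts on ribosomal protein genes in each standard-diet library (symbols, replicates), where the day 43 libraries sit at 14.4% to 18.6%, above all others.

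Markers of tissue that is not colonic mucosa were measured first. The list of 20 genes of stratified squamous epithelium, the keratinised lining that begins at the anus, had a summed level of 71.8 to 108 CPM in untreated mice, with 4 of its genes at 0 in every sample. The sum was 1008, 2438 and 1307 CPM at day 43 and 3997, 6420 and 5777 CPM at day 70, so that it was far above the untreated colon on both days and highest at day 70. Of the 20 genes, 5 were called higher and 0 lower, a share near the 23% of all genes called higher. The median log2 fold change of the list was 2.29. *Flg*, which encodes the filaggrin precursor of the cornified layer, was at 0.280, 0.321 and 0.375 CPM at day 43 and at 29.3, 50.4 and 46.3 CPM at day 70 (log2 fold change 7.01 ± 1.64 s.e., adjusted P = 0.0014). *Krt4*, a keratin of non-cornified squamous lining, rose by 4.54 ± 1.52 and was at 247 to 753 CPM at day 70. *Lor* (4.74), *Krt1* (5.42) and *Krt15* (2.29) were the other called members, whereas *Krt13*, the most abundant, was at 225 to 491 CPM at day 43 and 680 to 1585 CPM at day 70 and did not pass (adjusted P = 0.21). Without day 43 replicate 1, 3 of the 20 were called higher, a share below the 25.8% of all genes called higher in that fit. *Krt4* (adjusted P = 0.0521) and *Krt15* (adjusted P = 0.0765) did not pass there. In the fit with the ribosomal covariate the median of this list was −0.68. On the GW3965 diet its summed level varied widely between samples of the same day. It was 3049, 526 and 5208 CPM at day 43 and 34895, 135 and 15191 CPM at day 70.

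Skeletal muscle genes marked single samples instead of a day. Their summed level was 278, 105 and 114 CPM at day 43, and 32.7, 1030 and 236 CPM at day 70. *Acta1*, the skeletal muscle actin, reached 313 CPM in day 70 replicate 2 and 55.7 CPM in replicate 3, against 3.47 CPM in replicate 1 and 3.70 to 15 CPM at day 43. Of 16 genes only *Myh2*, a fast myosin, was called higher (6.69 ± 1.96, adjusted P = 0.00754), and without day 70 replicate 2 the median of the list moved from 1.78 to −0.01. Of 18 smooth muscle genes 5 fell and 0 rose (median −0.66), a share near the 26.7% of all genes called lower. *Tagln*, a smooth muscle actin-binding protein, was at 2373, 5112 and 4923 CPM at day 43 and 389, 965 and 541 CPM at day 70 (−2.71 ± 0.48, adjusted P = 0.000115), and *Pcp4l1*, *Cnn1* and *Lmod1* fell with it (−1.39 to −2.25). Squamous and muscle transcripts thus differed between samples, and their part in the results below was not tested.

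Lymphocyte genes were lower at day 70. All 18 of the B cell genes fell, with a median log2 fold change of −4.52. The summed level of the list was 131, 638 and 468 CPM at day 43 and 15, 28.5 and 18.8 CPM at day 70, below the 96.8 to 410 CPM of untreated mice and the 580 to 1064 CPM of day 22. *Tnfrsf13c*, which encodes the receptor for the survival factor BAFF, fell by 5.64 on the log2 scale, *Fcrla* by 4.92 and *Cd72*, an inhibitory co-receptor, by 3.57. *Cd79b*, a signalling chain of the B cell receptor and the most abundant member, was at 26.8, 100 and 84.9 CPM at day 43 and 1.05, 2.74 and 1.31 CPM at day 70 (−5.36 ± 0.96, adjusted P = 0.00013). Day 43 replicate 1 held the fewest B cell transcripts of its group, and all 18 genes were called lower without it (median −5.03) and also with the length-trend offsets (median −4.21). In the fit with the ribosomal covariate the median was −3.74 and 17 of 18 genes were lower at an unadjusted P below 0.05, although none passed the adjusted threshold. In that fit the other immune lists had fewer such members, with 1 of 20 T cell genes, 1 of 12 mast cell genes, 0 of 13 plasma cell genes, 0 of 20 colitis cytokines, 0 of 7 neutrophil chemokines, 2 of 16 neutrophil genes, 3 of 10 MHC class II genes, 6 of 12 cytotoxic genes, 6 of 14 follicle genes, 6 of 20 interferon-stimulated genes, 9 of 16 complement genes and 13 of 21 monocyte and macrophage genes. Over all 17063 genes, 1590 had such a P in either direction in that fit. The difference between these lists was not tested.

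Antibody-secreting cells were measured through 13 plasma cell genes, of which 11 fell and 1 rose. *Jchain*, which links IgA and IgM into polymers, was at 4644, 5480 and 14522 CPM at day 43 and 125, 671 and 262 CPM at day 70 (−4.54 ± 1.07, adjusted P = 0.00149). *Mzb1*, a chaperone of antibody secretion, fell by 4.83, *Ighm*, the IgM heavy chain, by 4.52 and *Eaf2* by 3.71. The member that rose was *Sdc1*, the syndecan CD138, which is also made by epithelial cells (1.14 ± 0.40, adjusted P = 0.0226). Unlike the B cell genes, the summed plasma cell level at day 70 (1839 to 4570 CPM) lay within the range of untreated mice (896 to 10380 CPM). With the length-trend offsets 7 of the 13 were called lower and the median moved from −2.80 to −1.89.

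T cell genes were lower as well. Of 20 T cell genes 17 fell and 0 rose (median −2.48), and of 12 genes of cytotoxic lymphocytes 10 fell (median −3.57). With the ribosomal covariate the medians were −1.49 and −2.60, and no gene passed the adjusted threshold. *Cd3d*, a chain of the T cell receptor complex, was at 36.0, 50.9 and 91.1 CPM at day 43 and 1.05, 3.09 and 2.83 CPM at day 70 (−4.66 ± 0.68, adjusted P = 2.06e-05). *Cd3g* and the receptor constant region *Trbc2* both fell by 3.24 and the adhesion receptor *Cd2* by 3.61, while *Thy1*, the most abundant of the list and also made by stromal cells, fell by 1.12. Among the cytotoxic genes, *Gzma*, a granzyme, was at 34.8 to 36.7 CPM at day 43 and at 0.473, 5.01 and 1.31 CPM at day 70 (−3.97 ± 0.71, adjusted P = 0.000133). *Klrd1*, the natural killer receptor CD94, fell by 4.46, *Klrk1*, which encodes NKG2D, by 3.54 and the chemokine *Ccl5* by 5.16. At day 70 both lists overlapped their untreated range. The summed T cell level was 50.9 to 89.7 CPM, against 57.6 to 127 CPM in untreated mice, and the cytotoxic level 4.15 to 16 CPM, against 6.88 to 19.6 CPM.

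Genes of lymphoid follicles, the organised B and T cell aggregates of the gut wall, fell in 12 of 14 measured members (median −2.37). *Ccl19*, the chemokine that draws T cells and dendritic cells into follicles, was at 4.35, 25.9 and 18.1 CPM at day 43 and 0.210, 0.392 and 0.0423 CPM at day 70 (−6.19 ± 1.05, adjusted P = 7.9e-05). *Ltb*, a lymphotoxin needed to form follicles, fell by 4.13 and *Tnfsf13b*, the gene of BAFF, by 1.72. *Enpp2*, which encodes autotaxin of high endothelial venules, was at 32.2, 49.4 and 27.3 CPM at day 43 and 13, 9.23 and 10.5 CPM at day 70 (−1.73 ± 0.25, adjusted P = 2.1e-05). *Clu*, a marker of follicular dendritic cells that regenerating epithelium also makes, was the most abundant member and was at 169 to 205 CPM at day 43 and 153 to 240 CPM at day 70 (0.08 ± 0.39, adjusted P = 0.884).

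**Figure D2:**
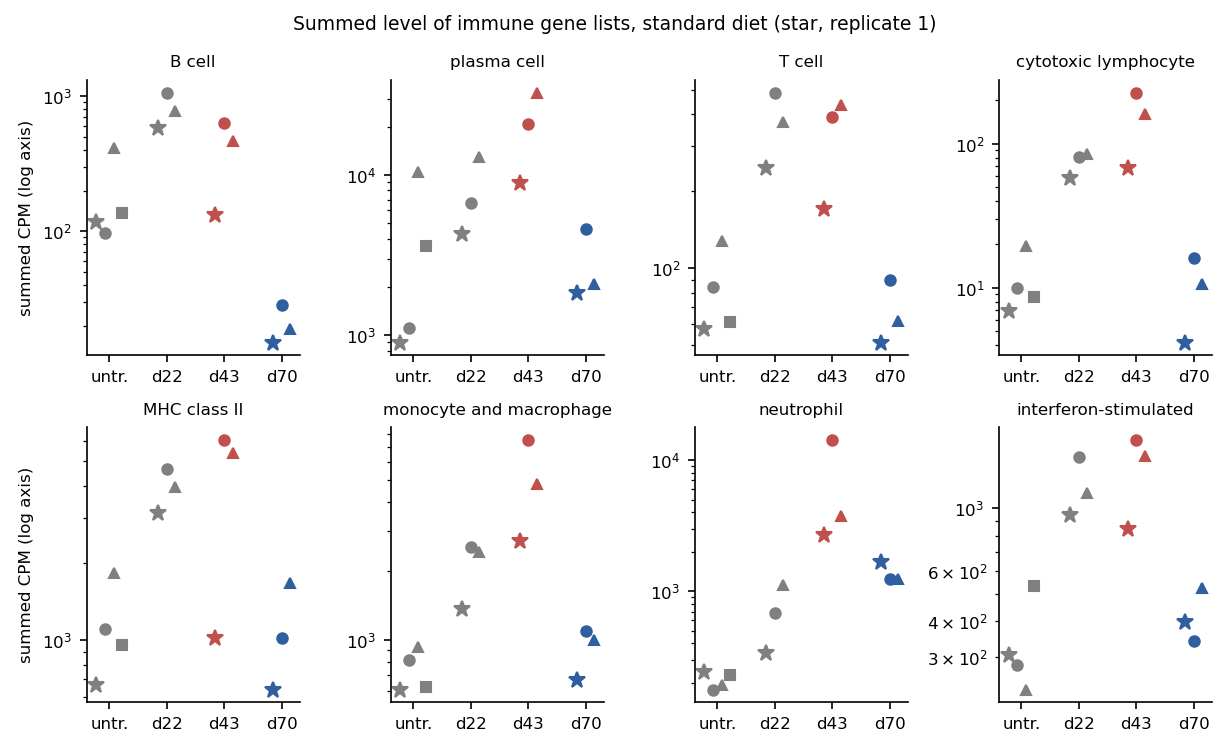
Summed CPM (log axis) of 8 immune gene lists in each standard-diet library, with untreated mice and day 22 in grey, day 43 in red and day 70 in blue, 1 symbol per library and a star for replicate 1. In the B cell panel the day 70 samples (15 to 28.5 CPM) lie below the day 43 and the untreated samples, and in the MHC class II panel they overlap day 43 replicate 1 (1020 CPM).

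Antigen presentation by MHC class II, which loads peptides for helper T cells, fell in 9 of 10 genes (median −2.42). *H2-Ab1*, a β chain of the classical molecule, was at 355, 1237 and 1472 CPM at day 43 and 105, 176 and 270 CPM at day 70 (−2.48 ± 0.47, adjusted P = 0.000232). The genes of H2-O, a modulator of peptide loading found chiefly in B cells, fell further, *H2-Ob* by 5.55 and *H2-Oa* by 5.45, and *H2-DMb2* of the peptide-exchange factor H2-DM fell by 4.69. *Cd74*, the invariant chain and the most abundant member, was at 165, 2173 and 1580 CPM at day 43 and 338, 516 and 865 CPM at day 70 and did not pass (−1.19 ± 0.57, adjusted P = 0.0873). Day 43 replicate 1 was the lowest of its group in each of these genes, and without it *Cd74* fell by 1.71 (adjusted P = 0.00246) and all 10 genes were called lower.

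These genes fell together, and their promoters are shown for the element they have in common. Class II promoters carry a Y box, bound by NF-Y beside the factors that recruit the class II transactivator *Ciita*. The letters TGATTGG, searched on both strands in the 250 bases before each start in RefSeq (GRCm38.p6), were found in 6 of the 7 class II genes that had a promoter in the table, and in 7.23% of all 32851 promoters. The match lay on the strand of the gene in each case and began 45 to 92 bases before the start. The 160 bases before the start are printed for 5 of these genes, with the matched letters in capitals.
H2-Ob (chr17:34238745-34238904, strand +): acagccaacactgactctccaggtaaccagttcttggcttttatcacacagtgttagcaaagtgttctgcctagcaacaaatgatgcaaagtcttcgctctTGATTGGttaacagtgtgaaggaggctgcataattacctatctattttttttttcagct
H2-Oa (chr17:34092219-34092378, strand +): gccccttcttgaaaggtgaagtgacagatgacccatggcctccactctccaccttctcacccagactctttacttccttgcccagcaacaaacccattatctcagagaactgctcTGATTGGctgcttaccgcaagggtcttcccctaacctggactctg
H2-DMb2 (chr17:34145089-34145248, strand +): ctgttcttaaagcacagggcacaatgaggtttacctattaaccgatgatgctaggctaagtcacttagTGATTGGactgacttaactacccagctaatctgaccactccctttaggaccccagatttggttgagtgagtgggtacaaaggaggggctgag
H2-Aa (chr17:34287824-34287983, strand -): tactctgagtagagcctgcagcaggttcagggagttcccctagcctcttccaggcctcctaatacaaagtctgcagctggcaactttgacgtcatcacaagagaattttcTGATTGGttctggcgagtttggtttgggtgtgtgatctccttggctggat
H2-Eb1 (chr17:34305707-34305866, strand +): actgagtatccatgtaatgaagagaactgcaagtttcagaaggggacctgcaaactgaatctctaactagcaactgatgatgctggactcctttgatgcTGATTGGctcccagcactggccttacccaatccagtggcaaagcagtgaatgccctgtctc
*Ciita* itself was at 15.4, 32.1 and 38.9 CPM at day 43 and 8.10, 7.84 and 16.9 CPM at day 70 (−1.39 ± 0.47, adjusted P = 0.0191). A match of letters is a description of the window and not evidence of binding.

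Interferon-stimulated genes, which restrict viruses and respond to type I and type II interferons, fell in 17 of 20 members and rose in 0 (median −1.91). *Isg15*, a ubiquitin-like modifier, was at 54.6, 128 and 169 CPM at day 43 and 5.05, 7.62 and 12.4 CPM at day 70 (−3.81 ± 0.58, adjusted P = 2.94e-05). *Ifit3*, which binds foreign RNA with its relatives, fell by 2.59, *Rsad2*, the antiviral enzyme viperin, by 2.08 and *Usp18*, which removes ISG15 from proteins, by 1.87. *Gbp2*, the most abundant, was at 89.2, 285 and 187 CPM and then at 96.5, 69.4 and 124 CPM, and its groups overlapped (−0.95 ± 0.54, adjusted P = 0.15). The summed level at day 70 was 341 to 525 CPM, within the untreated range of 230 to 534 CPM. The response element that interferon-activated factors bind was searched for as GAAA, any pair of bases and GAAA again, on both strands in the same 250-base windows, where overlapping matches were each counted. It was found in 7 of 13 interferon-stimulated genes with a promoter in the table and in 2.98% of all promoters. The 160 bases before the start are printed for 4 members with the matched letters in capitals. In the *Isg15* window 3 overlapping matches form 1 run of capitals.
Isg15 (chr4:156200819-156200978, strand -): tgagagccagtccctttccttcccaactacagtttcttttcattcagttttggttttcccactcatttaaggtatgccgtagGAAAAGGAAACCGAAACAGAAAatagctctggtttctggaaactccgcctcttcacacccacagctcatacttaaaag
Ifit3 (chr19:34583369-34583528, strand +): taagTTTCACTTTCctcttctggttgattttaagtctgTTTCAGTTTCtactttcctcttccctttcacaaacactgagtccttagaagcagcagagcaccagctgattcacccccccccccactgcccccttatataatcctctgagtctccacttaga
Ifit1 (chr19:34640729-34640888, strand +): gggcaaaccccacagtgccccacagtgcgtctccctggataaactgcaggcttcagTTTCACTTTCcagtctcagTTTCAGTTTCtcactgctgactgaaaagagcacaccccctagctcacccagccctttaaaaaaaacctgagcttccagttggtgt
Rsad2 (chr12:26456453-26456612, strand -): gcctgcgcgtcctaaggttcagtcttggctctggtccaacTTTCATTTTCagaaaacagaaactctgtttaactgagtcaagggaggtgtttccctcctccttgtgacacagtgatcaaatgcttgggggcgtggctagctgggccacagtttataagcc

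Myeloid genes followed the lymphoid ones. Of 21 monocyte and macrophage genes 16 fell and 0 rose (median −2.12). *Lyz2*, the lysozyme of macrophages and the most abundant member, was at 1884, 4253 and 3122 CPM at day 43 and 132, 402 and 207 CPM at day 70 (−3.64 ± 0.48, adjusted P = 8.66e-06), below the 243 to 468 CPM of untreated mice in 2 of the 3 samples. The complement chains *C1qa* and *C1qb* of resident macrophages fell by 2.82 and 2.73, and the lipid receptor *Trem2* by 2.83. Of 16 neutrophil genes 9 fell (median −2.73), with wide spread at day 43. *S100a8*, a calprotectin subunit, was at 1472, 6312 and 1251 CPM at day 43 and 58.1, 247 and 103 CPM at day 70 (−4.47 ± 1.03, adjusted P = 0.00126), still far above the 0.236 to 1.73 CPM of untreated mice. *Clec4e* fell by 4.02, *S100a9* by 3.90 and the decoy receptor *Il1r2* by 3.00.

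The signals that recruit these cells moved the same way. Of 7 neutrophil chemokine genes 5 fell (median −2.97), among them *Cxcl5*, at 1023, 896 and 392 CPM at day 43 and 107, 168 and 235 CPM at day 70 (−2.18 ± 0.80, adjusted P = 0.0278). Without day 43 replicate 1 *Cxcl5* did not pass (adjusted P = 0.0678). *Ccl3* fell by 3.48, *Ccl4* by 4.47 and *Cxcl3* by 3.21. Of 20 colitis cytokines 11 fell and 0 rose (median −2.19). *Tnf* was at 33.1, 36.0 and 54.5 CPM and then at 6.05, 10.1 and 12.7 CPM (−2.10 ± 0.58, adjusted P = 0.00487). *Il1b* was at 105, 610 and 770 CPM and then at 20.0, 95.4 and 52.6 CPM (−3.14 ± 0.96, adjusted P = 0.01), and *Ifng* (5.19 lower on the log2 scale), *Il10* and *Il12b* fell from levels of at most 20.2 CPM. Both day 70 sums (289 to 580 CPM for the chemokines and 128 to 274 CPM for the cytokines) stayed above the untreated ranges of 3.12 to 4.43 CPM and 60.5 to 78.6 CPM. In mast cell genes, 2 of 12 fell, *Mcpt2* and *Fcer1a*, a share below the 26.7% of all genes called lower. Day 43 replicate 1 decided the call of *Mcpt2*. It was at 209, 13.7 and 20.6 CPM at day 43 and 2.16, 11.8 and 12.7 CPM at day 70, and without that sample its log2 fold change was −0.94 (adjusted P = 0.362).

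Complement genes, whose products tag cells for phagocytosis, fell in 11 of 16 members and rose in 0 (median −1.31). *C3*, the central component, was at 211, 784 and 675 CPM at day 43 and 79.5, 84.6 and 52.6 CPM at day 70 (−2.95 ± 0.50, adjusted P = 8.1e-05). The inhibitor *Serping1* fell by 1.93. *C1s1*, a protease of the classical pathway, was at 212, 257 and 257 CPM at day 43 and 53.8, 61.0 and 45.0 CPM at day 70 (−2.19 ± 0.27, adjusted P = 5.49e-06).

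The proliferative programme rose. Of 30 cell cycle genes 19 rose and 1 fell (median 1.07), against 23% of all genes called higher. *Mki67*, the proliferation marker Ki-67, was at 26.7, 31.5 and 24.1 CPM at day 43 and 166, 82.8 and 93.8 CPM at day 70 (2.06 ± 0.26, adjusted P = 5.7e-06), and at 53.1 to 90.1 CPM in untreated mice. *Foxm1*, a transcription factor of mitotic genes, was at 2.80, 8.08 and 7.24 CPM and then at 38.7, 23.3 and 26.3 CPM (2.29 ± 0.34, adjusted P = 2.3e-05). The mitotic kinase *Plk1* rose by 2.24 and *Top2a*, the topoisomerase of dividing cells, by 2.09. The member that fell was the cyclin *Ccne2*, at 92.3, 19.8 and 30.1 CPM at day 43 and 12.8, 17.1 and 17.5 CPM at day 70 (−1.59 ± 0.47, adjusted P = 0.00777), and it no longer passed without day 43 replicate 1 (adjusted P = 0.181). *Pcna*, the most abundant, was at 398, 127 and 158 CPM and then at 195, 242 and 231 CPM, with overlapping groups (−0.03 ± 0.36, adjusted P = 0.947). The list's median was 1.09 with the length-trend offsets and 1.39 without day 43 replicate 1, and 11 of 30 genes were higher at an unadjusted P below 0.05 in the fit with the ribosomal covariate. The summed level of 1940 to 2472 CPM at day 70 exceeded every untreated sample (454 to 1185 CPM).

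Genes that build ribosomes and genes of the ribosome itself went in opposite directions. Of 24 ribosome biogenesis genes 18 rose and 2 fell (median 0.88). *Ncl*, the nucleolar protein nucleolin, was at 127, 179 and 102 CPM at day 43 and 838, 565 and 452 CPM at day 70 (2.18 ± 0.30, adjusted P = 1.21e-05). *Polr1a*, the largest subunit of RNA polymerase I, rose by 1.86, *Nop58*, a core protein of small nucleolar particles, by 1.76 and *Mybbp1a* by 1.54. *Nip7* and *Nhp2* fell by 0.90 each, but *Nhp2* did not pass with the length-trend offsets (adjusted P = 0.845) or without day 43 replicate 1 (adjusted P = 0.0823). *Npm1*, the most abundant, was at 1015, 454 and 440 CPM and then at 515, 624 and 594 CPM (−0.14 ± 0.25, adjusted P = 0.659). By contrast 77 of 83 ribosomal protein genes fell and 0 rose (median −1.63). *Rpl41* was at 18667, 12526 and 23447 CPM at day 43 and 1177, 1828 and 1863 CPM at day 70 (−3.49 ± 0.46, adjusted P = 8.52e-06), and *Rps14* (−3.34), *Rpl13a* (−3.31), *Rpl9* (−2.80) and *Rps15* (−2.54) followed. Ribosomal protein transcripts are short (median effective length 448 bases), and with the length-trend offsets 38 were called lower and 8 higher with a median of −0.50. The biogenesis list (median length 2089 bases) kept a median of 0.85 in that fit. With the ribosomal covariate the biogenesis median was 0.67, and 2 of the 24 genes were higher at an unadjusted P below 0.05. Ribosomal protein genes have many processed pseudogenes, among which reads can be split, so their values are uncertain.

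The result for Wnt target genes depended on 1 library. With all 6 samples 8 of 24 rose and 0 fell (median 0.67), and with the length-trend offsets 6 rose and 1 fell (median 0.39). Without day 43 replicate 1, 21 of 24 rose and 0 fell and the median was 2.26, where 25.8% of all genes were called higher. The summed level of the list was 2536 CPM in that library, 562 and 577 CPM in the other day 43 samples, 1487, 2238 and 2138 CPM at day 70 and 527 to 595 CPM in untreated mice. By this sum day 43 replicate 1 sat above the day 70 samples, and the other day 43 samples sat within the untreated range. By the mean log2 CPM of the list, replicate 1 (5.92) lay above day 70 replicate 1 (5.14) and below day 70 replicates 2 and 3 (6.07 and 5.99). The other day 43 samples (3.74 and 3.85) lay above the untreated samples (3.25 to 3.52) by that measure. With the length trend removed from that mean, day 43 replicate 1 (6.11) lay above all 3 day 70 samples (5.1, 6.05 and 5.95). Other library measures of replicate 1 were apart too, with an RNA integrity number of 2.6 and 41522204 estimated counts. Their part in its Wnt levels was not tested. The study describes macroscopic tumours in mice on the standard diet at each of the time points compared here. The labels do not say which samples held tumour tissue. The part of tumour tissue in the Wnt levels of day 43 replicate 1 was not tested either.

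Among these genes are the feedback inhibitors of the pathway. *Wif1*, a secreted inhibitor that binds Wnt proteins and the most abundant member, was at 577, 17.5 and 14.2 CPM at day 43 and 47.5, 219 and 233 CPM at day 70, against 0.708 to 2.30 CPM in untreated mice. Its log2 fold change was −0.28 ± 0.93 (adjusted P = 0.821) with all samples and 3.40 ± 0.80 (adjusted P = 0.00144) without replicate 1, so that the direction itself rested on that library. *Notum*, which removes the lipid of Wnt proteins, was at 190, 9.42 and 14.4 CPM at day 43 and 16.7, 115 and 106 CPM at day 70, and at no more than 0.170 CPM in untreated mice. *Axin2*, the intracellular feedback gene, was at 94.5, 11.7 and 14.3 CPM and then at 103, 173 and 176 CPM (1.90 ± 0.58, adjusted P = 0.01), and rose by 3.54 without replicate 1 (adjusted P = 1.92e-05). The ligases *Rnf43* and *Znrf3*, which clear Wnt receptors from the surface, had log2 fold changes of 1.21 (adjusted P = 0.0253) and 0.77 (adjusted P = 0.168) with all samples, and of 2.31 and 2.22 without it (adjusted P = 4.1e-05 and 1.16e-05).

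Stem and progenitor targets behaved alike. *Lgr5*, the receptor of crypt base stem cells, was at 102, 6.10 and 9.70 CPM at day 43 and 38.0, 69.4 and 67.0 CPM at day 70 (0.56 ± 0.73, adjusted P = 0.546), and *Prox1*, a transcription factor switched on in colonic adenomas, at 201, 6.16 and 5.57 CPM and then at 45.5, 108 and 106 CPM (0.28 ± 0.81, adjusted P = 0.792). Without replicate 1 both rose, by 2.89 and 3.89 (adjusted P = 0.00103 and 1.68e-05). *Ephb2* and *Ccnd1* were outside this pattern, with no high value in replicate 1. *Ephb2*, a receptor that positions cells along the crypt (chr4:136647539-136835988, minus strand, GRCm38), was at 14, 15.7 and 21 CPM at day 43 and 211, 86.8 and 97.2 CPM at day 70 (2.96 ± 0.38, adjusted P = 7.81e-06). *Ccnd1*, cyclin D1, was at 54.7 to 65.9 CPM and then at 175 to 238 CPM (1.71 ± 0.29, adjusted P = 8.15e-05). *Ephb3* also rose by 0.97 and the stem cell factor *Ascl2* by 1.99, both without overlap between the days. In the fit with the ribosomal covariate the median of the 24 genes was 0.96, but only 1 of them was higher at an unadjusted P below 0.05. Over all 17063 genes, 1590 had such a P in either direction in that fit.

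**Figure D3:**
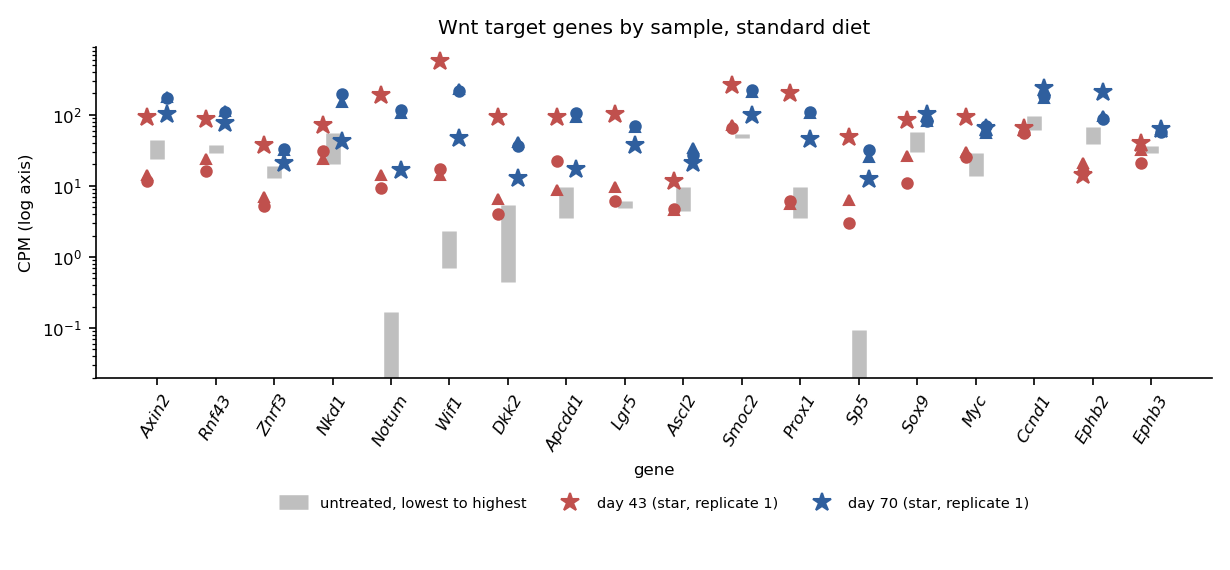
CPM (log axis) of 18 Wnt target genes in each sample, with day 43 in red, day 70 in blue, a star for replicate 1 of each day, and a grey bar from the lowest to the highest untreated sample, cut at the foot of the axis where it starts at 0. For *Wif1*, *Notum*, *Lgr5* and *Prox1* the red star lies above every blue symbol and the other two red symbols below them.

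Lipid metabolism genes rose. Of 20 genes of cholesterol synthesis and uptake 10 rose and 0 fell (median 0.82). With the ribosomal covariate the median was 0.86, and 0 of the 20 were higher at an unadjusted P below 0.05. *Lss*, lanosterol synthase, was at 15.1, 15.3 and 17.6 CPM at day 43 and 78.2, 62.4 and 43.4 CPM at day 70 (1.94 ± 0.34, adjusted P = 0.000102), and *Hsd17b7* rose by 2.09. The summed level of 2443 to 3434 CPM at day 70 lay within the untreated range of 1283 to 4101 CPM. Of 12 LXR target genes 7 rose and 2 fell (median 0.88), and with the ribosomal covariate 3 were higher and 1 lower at an unadjusted P below 0.05. *Scd2*, a fatty acid desaturase, was at 339, 230 and 232 CPM and then at 1531, 811 and 1151 CPM (2.12 ± 0.33, adjusted P = 3.08e-05), and *Lpcat3* rose by 1.78, *Abcg8* by 1.90 and *Srebf1* by 0.92. *Nr1h3*, the gene of LXRα itself, which macrophages express highly, was at 25.4, 38.6 and 47.1 CPM at day 43 and 5.73, 7.49 and 7.52 CPM at day 70 (−2.42 ± 0.30, adjusted P = 5.72e-06), and *Smpdl3a* fell by 1.08.

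Differentiated epithelium showed no common direction. Of 24 colonocyte absorption genes 2 rose and 3 fell (median −0.05), both below the shares of all genes (23% higher, 26.7% lower). *Car4*, the carbonic anhydrase of surface colonocytes, was at 32.1, 120 and 120 CPM at day 43, 14.2, 8.40 and 17.7 CPM at day 70 and 497 to 1077 CPM in untreated mice (−2.75 ± 0.73, adjusted P = 0.00393). The water channel *Aqp8* fell by 2.88 and the bile acid transporter subunit *Slc51b* by 1.69, while the water channel *Aqp4* rose by 4.11 and *Ceacam20* by 1.18. With the length-trend offsets *Slc51b* (−0.38, adjusted P = 0.601) and *Ceacam20* (0.99, adjusted P = 0.0693) did not pass, and *Ceacam20* did not pass without day 43 replicate 1 either (adjusted P = 0.0793). Of 19 goblet cell genes 4 rose and 3 fell (median 0.14), neither above those shares of all genes. The transcription factors *Spdef* and *Atoh1* and the mucin-processing genes *Ern2* and *Galnt12* were the 4 that rose (1.02 to 2.06). Among the 3 that fell were the secreted products *Tff3* and *Spink4*, with *Tff3* going from 1084, 1095 and 1978 CPM to 239, 331 and 410 CPM (−2.08 ± 0.51, adjusted P = 0.00202). With the length-trend offsets none of the 3 that fell passed (*Tff3*, −0.73, adjusted P = 0.182; *Spink4*, 0.12, adjusted P = 0.817; *Zg16*, adjusted P = 0.513), and the 4 that rose all did.

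**Figure D4:**
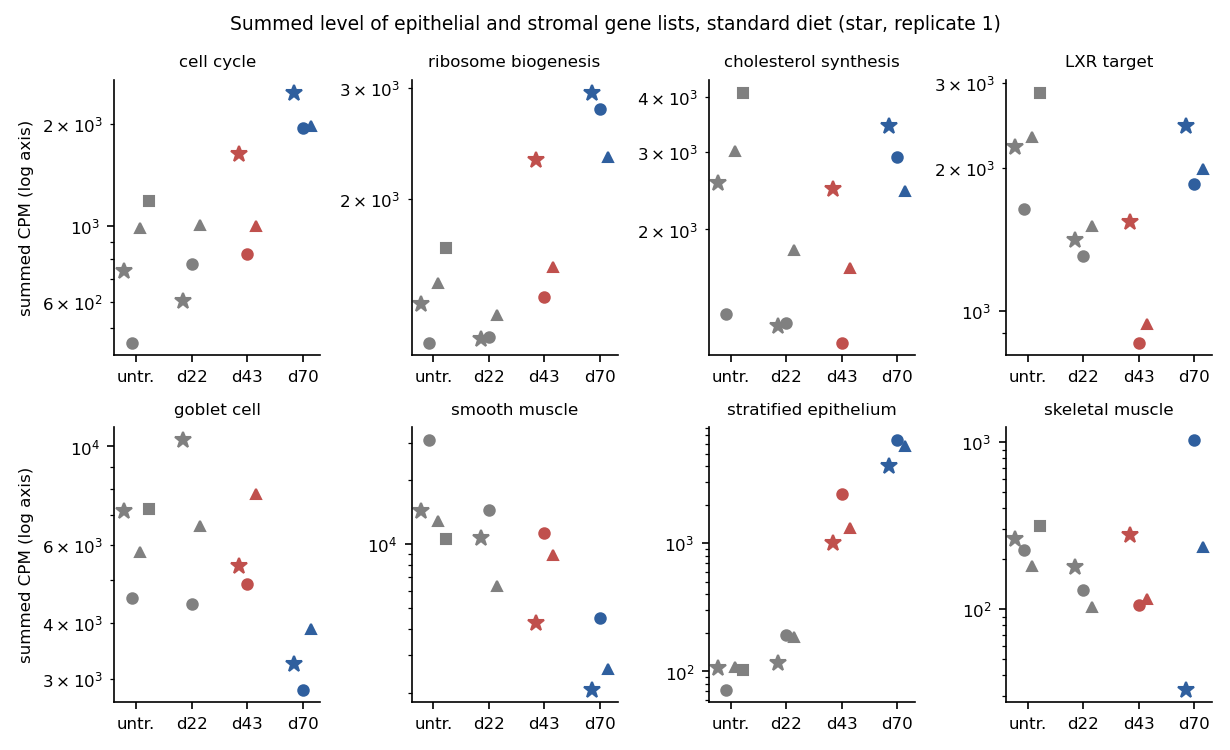
Summed CPM (log axis) of 8 gene lists of epithelium, lipid metabolism and muscle in each standard-diet library, drawn as in the plot of immune lists. The cell cycle and stratified epithelium sums of the 3 day 70 samples lie above all others, and the skeletal muscle sum of day 70 spans 32.7 to 1030 CPM.

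Among the barrier genes, *Cldn2*, which forms cation and water channels in the tight junctions of crypts, was the claudin that rose. It was at 37.0, 35.4 and 38.3 CPM at day 43 and 267, 216 and 244 CPM at day 70 (2.71 ± 0.30, adjusted P = 3.38e-06), above the 114 to 183 CPM of untreated mice, and of the 14 claudins tested the endothelial *Cldn5* fell (−1.68). The antimicrobial list was split, with 1 of 20 higher and 4 lower. The claudin and antimicrobial counts were below the shares of all genes called, 23% higher and 26.7% lower. The acute phase genes *Saa1*, *Saa2* and *Saa3* fell by 3.04 to 3.86. *Saa1* and *Saa2* are near-identical copies whose reads can be split, and *Saa3* was at 1425, 2239 and 1648 CPM and then at 80.8, 188 and 96.9 CPM. *Duox2*, which makes hydrogen peroxide at the epithelial surface, was the 1 that rose (1.03 ± 0.33, adjusted P = 0.0123) but did not pass with the length-trend offsets (0.45, adjusted P = 0.322), and *S100g* was the other that fell.

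Stromal and nerve genes were lower in part. Of 20 fibroblast genes 9 fell and 2 rose (median −0.83). *Lum*, a matrix proteoglycan, was at 179, 259 and 222 CPM at day 43 and 17.8, 46.9 and 23.7 CPM at day 70 (−2.90 ± 0.48, adjusted P = 6.7e-05), and *Dcn*, *Fap* and *Postn* fell by 1.26 to 2.17. *Loxl2*, which cross-links collagen, and *Pdgfrb* of pericytes were the 2 that rose (1.34 and 0.87), and *Pdgfrb* did not pass without day 43 replicate 1 (adjusted P = 0.162). Collagens were split, with 5 of 20 higher and 3 lower. These counts were near the 23% of all genes called higher and below the 26.7% called lower. The basement membrane chains *Col4a1* and *Col4a2* rose (1.18 and 1.82) with *Col15a1* (1.65), *Col5a1* (1.09) and *Col1a1* (1.40), of which *Col5a1* and *Col1a1* did not pass without day 43 replicate 1 (adjusted P = 0.0832 and 0.0862). The fibrillar *Col3a1* fell from 3274, 2622 and 2449 CPM to 1073, 819 and 531 CPM (−1.78 ± 0.39, adjusted P = 0.000867). The median of the 20 collagens was 0.38 with TMM factors and −0.14 with the length-trend offsets. Of 17 enteric neuron and glia genes 10 fell and 0 rose (median −1.69). *Vip*, a neuropeptide of secretomotor neurons, was at 78.0, 75.8 and 79.3 CPM at day 43 and 4.73, 12.7 and 4.19 CPM at day 70 (−3.43 ± 0.48, adjusted P = 1.52e-05), and the glial genes *Gfap* and *S100b* fell by 3.00 and 3.31. The summed neuron and glia level at day 70 (57.6 to 81.1 CPM) lay below that of untreated mice (121 to 217 CPM).

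**Figure D5:**
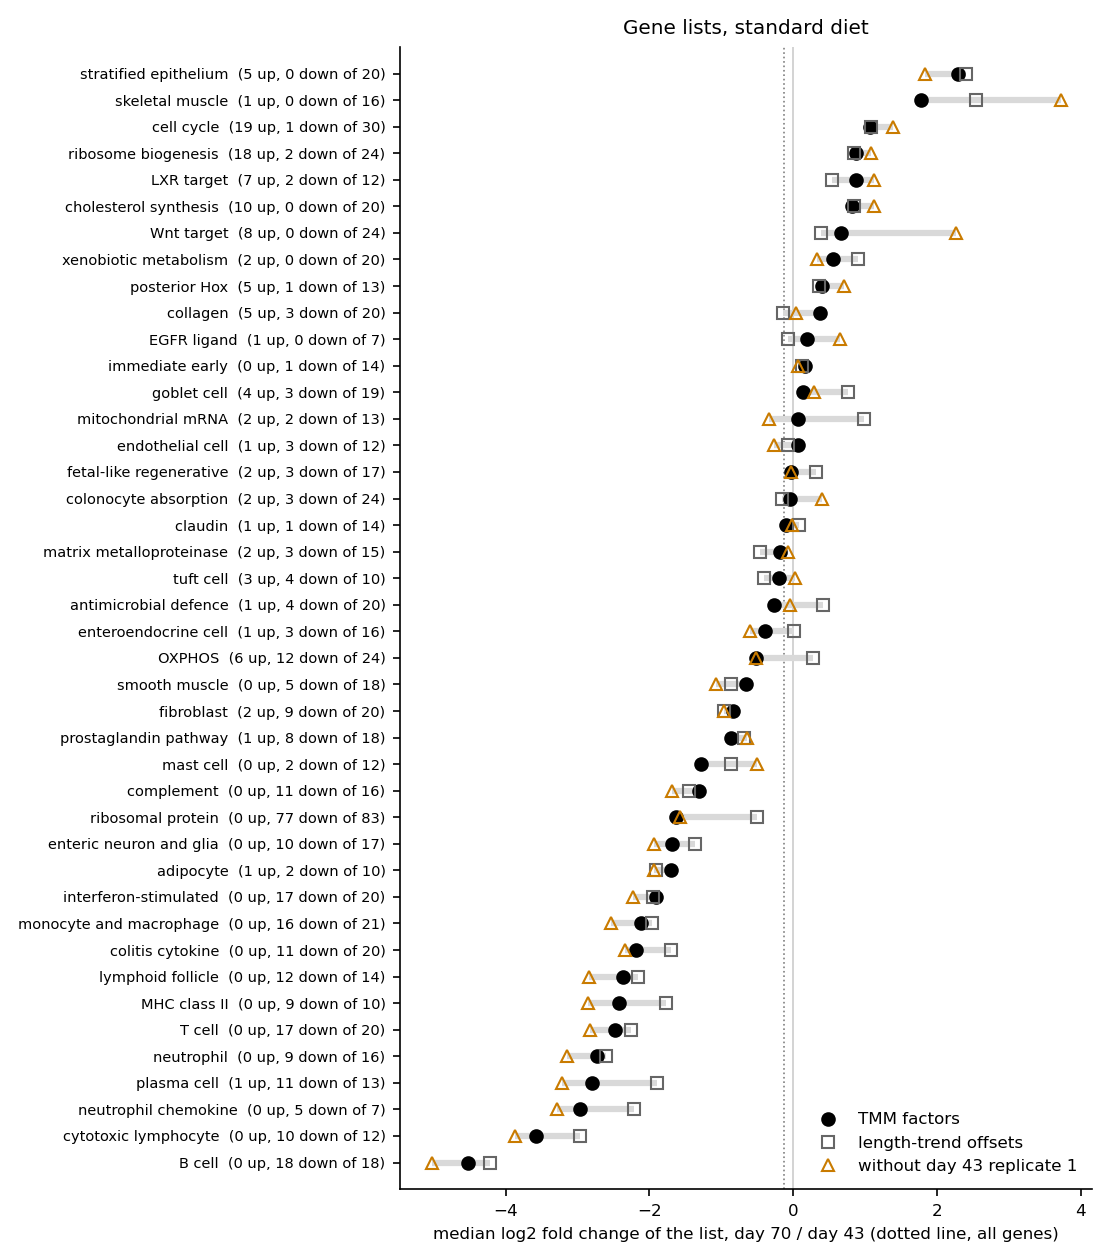
Median log2 fold change (day 70 over day 43) of the 42 gene lists with TMM factors (filled circles), with length-trend offsets (squares) and without day 43 replicate 1 (triangles), with the number of genes called higher and lower of those tested beside each name. The B cell list is lowest in all 3 fits (−4.52 with TMM factors), and the Wnt target list moves from 0.67 to 2.26 without that replicate.

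Nuclear genes of oxidative phosphorylation moved in both directions. Of 24 genes 12 fell and 6 rose (median −0.52), and with the length-trend offsets 5 fell and 9 rose (median 0.28). *Ndufb8*, a small subunit of complex I, was at 622, 482 and 1064 CPM at day 43 and 143, 168 and 185 CPM at day 70 (−2.13 ± 0.25, adjusted P = 4.28e-06), and fell in both fits. *Cox4i1* of cytochrome oxidase fell by 1.70, while *Atp5a1* of the ATP synthase rose by 1.14 and *Ndufs1*, the largest subunit of complex I, by 1.09. *Sdhb*, which fell by 0.74, did not pass with the offsets (adjusted P = 0.921).

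Taken by the smallest P value among protein-coding genes that did not overlap between the days and were also called without day 43 replicate 1, the leading genes were not members of the lists. *Fam83b*, an adaptor of growth factor signalling, was at 1.49, 1.02 and 1.13 CPM at day 43 and 40.3, 27.2 and 29.8 CPM at day 70 (4.72 ± 0.46, adjusted P = 2.14e-06), and at 17.1 to 28.8 CPM in untreated mice. *Acaca*, acetyl-CoA carboxylase of fatty acid synthesis, rose by 2.22, the vitamin C transporter *Slc23a2* by 2.35 and *Fntb*, a farnesyltransferase subunit, by 1.96. *Psmd1* of the proteasome, *Usp34*, *Efr3a*, *Glce*, *Pphln1* and *Fam206a* rose by 1.61 to 1.94. In all 10 of these genes the untreated range lay above every day 43 sample.

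The 10 leading genes that fell began with *Fgl2*, a prothrombinase made by macrophages and T cells, at 277, 306 and 259 CPM at day 43 and 48.5, 60.2 and 41.6 CPM at day 70 (−2.49 ± 0.24, adjusted P = 2.14e-06). *Clec2d*, a ligand of a natural killer cell receptor, was at 451, 427 and 551 CPM and then at 18.3, 27.0 and 34.8 CPM (−4.16 ± 0.42, adjusted P = 2.14e-06), below its 50.9 to 64.7 CPM in untreated mice. *Ggt5*, which converts leukotriene C4, fell by 4.0 and *Syp*, the synaptic vesicle protein synaptophysin, by 2.29. *Tmem256*, *Atp6v0b*, *Rdm1*, *Pcbd2*, *S100a1* and *Bloc1s1* fell by 2.17 to 3.59. All 20 leading genes were also called in the same direction with the length-trend offsets.

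The same 2 days were compared on the GW3965 diet in one model, with the difference of the 2 changes as the tested term. 2 of 17063 genes (0.0117%) were called, and 2501 (14.7%) had an unadjusted P below 0.05. *Enpp2* was at 31.4, 45.5 and 34.8 CPM at day 43 and 80.0, 46.2 and 33.4 CPM at day 70 on the GW3965 diet, so that the change on the standard diet was lower by 2.25 ± 0.35 (difference −2.25) on the log2 scale (adjusted P = 0.0179). *C1s1* was at 141, 221 and 110 CPM and then at 261, 171 and 124 CPM there (difference −2.42 ± 0.37, adjusted P = 0.0179). Without GW3965 day 70 replicate 1, the sample highest in both, the differences were −1.85 and −2.11 (adjusted P = 0.0476 for each). Against that share, none of the 18 B cell genes passed the adjusted threshold, but all 18 had an unadjusted P below 0.05 with the larger fall on the standard diet, as did 12 of 21 monocyte and macrophage genes, 11 of 16 complement genes and 9 of 17 neuron and glia genes. The summed B cell level on the GW3965 diet was 770, 1121 and 490 CPM at day 43 and 138, 735 and 54.4 CPM at day 70, where replicate 2 alone lay within the day 43 range. Without that replicate 6 of the 18 B cell genes had such a P value, and without standard diet day 43 replicate 2 it was 11 of 18. In the same order the counts were 7 and 4 of 21 monocyte and macrophage genes, 9 and 7 of 16 complement genes, and 11 and 3 of 17 neuron and glia genes. Without GW3965 day 70 replicate 1 the neuron and glia count was 2. The monocyte and macrophage count was 6 without standard diet day 70 replicate 1 and 7 without replicate 3. The counts also depended on the test. With limma's voom and quality weights on all samples, 3 of the 18 B cell genes had such a P value. In that fit it was 11 of 21 monocyte and macrophage, 7 of 16 complement and 4 of 17 neuron and glia genes. Over all 17063 genes, 2484 had an unadjusted P below 0.05 in that fit, in either direction. GW3965 day 70 replicate 1 carried 31663 CPM of skeletal muscle genes and 34895 CPM of stratified epithelium genes. Replicate 3 of that group carried 15191 CPM of stratified epithelium genes. The part of these tissues in the difference was not tested.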

How the data were processed

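RNA-seq libraries of the distal colon were quantified by the authors with Kallisto against GRCm38, per the submitters' processing notes (Kallisto version not given in the sources used here). The deposited values were estimated counts and TPM per transcript, 1 file per sample. Estimated counts were summed per gene (116728 of 119414 transcripts matched, 35975 genes), and TPM entered only a length-scaled alternative. Genes were filtered by edgeR's filterByExpr (17063 kept), scaled by TMM and tested with edgeR 4.0.16 (glmQLFit, glmQLFTest) on all 26 samples, with groups from the sample titles; 1 sample outside this contrast had conflicting labels and was placed by its title. The percentage of ribosomal RNA, which the study's methods use as a covariate, is not in the labels, and the share of ribosomal protein genes stood in for it in an alternative. In simulated data on these 17063 genes, 128 of 200 changed genes (64%, log2 fold change of 2) were recovered for day 70 against day 43 on the standard diet. All other genes were simulated without a change between the days. In the data 49.7% of genes were called, so that the simulated share does not give the sensitivity of this comparison.

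Alternatives used limma 3.58.1 (voom with quality weights), DESeq2 1.42.0, other scalings, filters, samples and covariates. The length-trend offsets and leaving out single GW3965 samples were added after the data were seen. The comparison and all gene lists were chosen with earlier results of these data known. Genes named were, per list, up to 4 called genes of smallest P in the prevailing direction, up to 2 in the other and the most abundant, and over all genes the 10 higher and 10 lower protein-coding genes of smallest P whose groups did not overlap and that were also called without day 43 replicate 1; the other named genes were chosen after their values were seen. Some genes that this rule names are not reported here. Promoter windows came from RefSeq (GRCm38.p6). R 4.3.3 and Python 3.11.15 were used.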

Additional observations from a re-analysis of the deposited data

Results flagged for a closer look

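The change from day 43 to day 70 differed between the diets in a tested interaction term for 2 genes. For *Enpp2* the change was −1.73 on the standard diet and 0.52 on the GW3965 diet, a difference of −2.25 ± 0.35 on the log2 scale (edgeR's quasi-likelihood test, adjusted P = 0.0179). For *C1s1* the changes were −2.19 and 0.24, a difference of −2.42 ± 0.37 (adjusted P = 0.0179). The 3 day 70 samples of the standard diet were below all 3 day 43 samples in both genes, whereas the groups of the GW3965 diet overlapped. GW3965 day 70 replicate 1 was the highest sample of both genes and carried 31663 CPM of skeletal muscle genes and 34895 CPM of stratified epithelium genes. Without that sample the differences were −1.85 and −2.11 (adjusted P = 0.0476 for each). With other single samples left out, neither gene passed without standard diet day 70 replicate 3 (adjusted P = 0.113 for each), GW3965 day 43 replicate 1 (adjusted P = 0.103 for each) or GW3965 day 43 replicate 3 (adjusted P = 0.106 for each), and *Enpp2* did not pass without standard diet day 70 replicate 2 (adjusted P = 0.0538).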

How the results depend on the processing

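The number of genes called between the days was 8475 and fell to 4865 (2423 higher, 2442 lower) with only the 6 samples fitted and to 0 (0 higher, 0 lower) with the ribosomal protein percentage as a covariate, and leaving out 1 of the 12 AOM–DSS samples of the 2 days gave 6418 to 9066. Scaling by library totals alone called 2869 genes lower. For the difference between the diets, 2 genes were called by edgeR's quasi-likelihood test on all samples, 0 with only the 18 AOM–DSS samples, with 10 groups or with length-scaled TPM counts, 1 with library totals alone, 4 with no filter, 5 with RNA integrity as a covariate, 38 with voom and quality weights, 136 with the likelihood ratio test, 256 with DESeq2 and 96 with the length-trend offsets without day 43 replicate 1. Leaving out 1 of the 6 standard-diet samples gave 0 to 63 genes, with 63 without day 43 replicate 1, 11 without day 43 replicate 2, 9 without day 43 replicate 3 and 0 without day 70 replicate 3. Leaving out 1 of the 6 GW3965 samples, added after the data were seen, gave 0 to 188, with 0 without day 43 replicate 1 or 3, 13 without day 43 replicate 2, 2 without day 70 replicate 1, 188 without day 70 replicate 2 and 133 without day 70 replicate 3. Replicate numbers did not pair the samples (correlations of same-numbered deviations −0.0587, 0.0623 and −0.047), and with the replicate number as a block in the 18 AOM–DSS samples 6850 genes were called between the days and 0 between the diets.

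Signs turned as follows, with the cause not tested. With the ribosomal covariate, the log2 fold changes were 0.00 for *Ccne2*, −0.16 for *Col5a1*, −0.55 for *Krt15*, −1.75 for *Krt4*, 0.22 for *Hoxa10*, 0.62 for *Nhp2*, 0.34 for *Nip7*, −0.39 for *Pdgfrb*, 0.93 for *Spink4*, −0.06 for *Tgfa* and 0.08 for *Tnf*. With RNA integrity as a covariate they were 0.05 for *Hoxa10*, 0.71 for *Npm1*, 1.10 for *Pcna* and 4.40 for *Wif1*, and with voom and quality weights 0.41 for *Npm1*, 0.57 for *Pcna* and 3.59 for *Wif1*. With length-trend offsets *Spink4* was at 0.12. Without day 43 replicate 1 and with those offsets they were 0.14 for *Hoxa10*, 0.16 for *Nhp2*, 0.92 for *Npm1*, 1.08 for *Pcna*, −0.04 for *Pdgfrb*, 0.06 for *Sdhb*, 0.50 for *Spink4* and 3.48 for *Wif1*, which with single samples left out ranged from −0.82 (without day 43 replicate 2) to 3.40 (without replicate 1).

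With 3 samples per day, cage and day cannot be told apart, and neither can the day and the share of ribosomal protein transcripts. Estimated counts carry no molecular identifiers, and genes near 0 CPM on 1 day have fold changes that depend on the prior count.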

Other observations

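Further gene lists of the mucosa, none of which moved in 1 direction throughout, held single genes that did. Among 10 tuft cell genes, the chemosensory lineage of the epithelium, 3 rose and 4 fell. *Avil*, which encodes advillin, was at 9.17, 2.14 and 3.59 CPM at day 43 and 30.1, 32.2 and 28.3 CPM at day 70 (2.59 ± 0.59, adjusted P = 0.0011), above the 1.37 to 2.17 CPM of untreated mice. Among 16 enteroendocrine genes 1 rose and 3 fell, both below the shares of all genes (23% higher, 26.7% lower). The hormones *Sst* (−2.35) and *Insl5* (−2.03) were lower, of which *Insl5* did not pass with the length-trend offsets (−0.77, adjusted P = 0.318). Of 18 prostaglandin pathway genes 8 fell and 1 rose. The receptor *Ptger2* was at 7.83, 8.62 and 7.29 CPM and then at 1.52, 1.39 and 1.18 CPM (−2.53 ± 0.36, adjusted P = 1.76e-05), and the gene that rose was *Alox12*, the platelet-type lipoxygenase (2.27 ± 0.67, adjusted P = 0.0077). Of 7 genes of EGFR ligands only *Tgfa* rose (1.45 ± 0.39, adjusted P = 0.00416), a share below the 23% of all genes called higher.

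Of 13 posterior Hox genes, which mark position along the gut, 5 rose and 1 fell, and the one that fell, *Hoxa10*, did not pass without day 43 replicate 1 (adjusted P = 0.4). *Hoxd12* was at 6.34, 2.52 and 4.34 CPM at day 43 and 8.62, 13.9 and 22.4 CPM at day 70 (1.76 ± 0.44, adjusted P = 0.00228). In 15 matrix metalloproteinase and inhibitor genes 2 rose and 3 fell, both below the shares of all genes (23% higher, 26.7% lower). *Mmp15*, a membrane-bound enzyme, was at 18, 33.3 and 33.9 CPM and then at 190, 96.0 and 141 CPM (2.33 ± 0.33, adjusted P = 1.43e-05), against 110 to 189 CPM in untreated mice, and *Mmp14* rose by 1.28. Of 20 xenobiotic metabolism genes 2 rose and 0 fell, also below the same shares of all genes. Their summed level at day 70 (678 to 963 CPM) stayed below the untreated range of 1853 to 2685 CPM. Among 17 genes of the fetal-like programme of regenerating epithelium 2 rose and 3 fell, again below those shares of all genes. *Ccn2*, a target of YAP signalling, was at 606, 93.8 and 129 CPM at day 43 and 34.9, 44.9 and 29.9 CPM at day 70 (−2.92 ± 0.50, adjusted P = 8.38e-05). Of 14 immediate early genes, which rise within minutes of handling or stimulation, *Dusp1* was the only one called (−1.50 ± 0.58, adjusted P = 0.0378). That share was below the 49.7% of all genes called, and with the length-trend offsets 0 of the 14 were called lower.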
